A study of Mus musculus with 18 samples.

Results

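Meg3, Rian and Mirg are long noncoding RNAs of the imprinted Dlk1-Dio3 cluster of the mouse, and they were 3 of the 10965 genes in the table of RNA levels analysed here. They were chosen by their symbols because of the pattern that their levels had in these same libraries, in which all 3 stood higher in Zeb2 KO than in Ctrl embryonic stem cells (ESCs) at d0. Their levels and differences are therefore given as a description, with no test. Differences of other genes were tested over all genes.

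Imprinted genes are read from only the maternal or only the paternal chromosome, according to DNA methylation set in the germ line. In the Dlk1-Dio3 cluster the noncoding RNAs are read from the maternal chromosome and the protein genes Dlk1, Rtl1 and Dio3 from the paternal chromosome, under a control region between Dlk1 and Meg3. Meg3 (also called Gtl2), Rian and Mirg lie in the same orientation, and are often regarded as parts of a long transcription unit that starts at the Meg3 promoter. Rian hosts small nucleolar RNAs and Mirg hosts many of the microRNAs of the cluster. The cluster is known in mouse pluripotent stem cells because the maternal RNAs can become silenced in culture.

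The libraries came from Ctrl ESCs, labelled Zeb2 fl/fl (both alleles of the transcription factor Zeb2 flanked by loxP sites but intact), and from KO ESCs, labelled Zeb2 -/-, both with the strain label CD1. Each genotype was collected at d0 in 2i + LIF without feeder cells (labelled as ground-state ESCs) and at d4 and d6 of a neural differentiation (ND) protocol, with 3 libraries for each of the 6 groups and 18 in all. Per the labels the 2i medium held PD0325901 at 0.4 µM and CHIR99021 at 1 µM, whereas the methods state higher concentrations. The labels call the later stages multipotent and neural progenitors in both genotypes, but the study uses these stages for Ctrl cells, and the neural progenitor markers added up to only 98.8 to 119 TPM in KO at d6, against 520 to 599 TPM in Ctrl. From d0 the cells grew as embryoid bodies in medium with 15% serum, and from d4 in N2B27 with 500 nM retinoic acid. KO lines were obtained with Cre from control lines and from a second derivation on a mixed background, and the sources used here do not say which lines were sequenced. The replicates are numbered, with no cell line or passage in the labels, so the spread between them may not be that between lines, and genotype and line cannot be told apart.

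Values are TPM, read counts divided by gene length and scaled to a common total in each library, so that levels can be compared between genes. The libraries held 9622622 to 15617675 reads on the genes of the table (median 12131165). Zeb2 itself, the targeted gene, had 13 to 19 reads in Ctrl and 1 to 3 in KO at d0. At d4 it had 173 to 193 and 12 to 24 reads, and on d6 it had 730 to 949 and 71 to 84. In bulk RNA, fewer cells that express a gene and less RNA per cell cannot be told apart.

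In the GENCODE M21 annotation (GRCm38), Meg3 (ENSMUSG00000021268) covers chr12:109541001-109571726, Rian (ENSMUSG00000097451) chr12:109603940-109661716 and Mirg (ENSMUSG00000097391) chr12:109729764-109749460, all on the plus strand. Rian starts 62.9 kb and Mirg 188.8 kb after the start of Meg3. Their exons add up to 18089 bases for Meg3, 18234 for Rian and 7292 for Mirg. Rtl1 lies on the opposite strand between Meg3 and Rian in this annotation, but its longer RefSeq model overlaps the last 6827 bases of Meg3 and the first 479 bases of Rian. Whether reads were counted by strand is not given in the sources used here, so reads of an opposite transcript could be counted in these stretches.

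The start windows of the 3 genes are shown because the levels of the members moved alike while their RefSeq starts differ in sequence. Each window runs from 250 bases before to 50 bases after the start in the RefSeq models of GRCm38.p6, on the plus strand, at chr12:109540746-109541045 for Meg3, chr12:109603695-109603994 for Rian and chr12:109734731-109735030 for Mirg. The RefSeq start of Mirg lies inside the GENCODE gene, well after its GENCODE start at 109729764. Its window therefore holds sequence from within the gene, with miR-668-5p, miR-668-3p and miR-485-3p. The GENCODE start of Mirg was not searched. Capitals mark CACCT (the core of the E-box sequence that Zeb2 binds) and the motifs TGACGTCA (bound by CREB family factors) and TATAAA (the TATA box), each searched on both strands.
Meg3 start: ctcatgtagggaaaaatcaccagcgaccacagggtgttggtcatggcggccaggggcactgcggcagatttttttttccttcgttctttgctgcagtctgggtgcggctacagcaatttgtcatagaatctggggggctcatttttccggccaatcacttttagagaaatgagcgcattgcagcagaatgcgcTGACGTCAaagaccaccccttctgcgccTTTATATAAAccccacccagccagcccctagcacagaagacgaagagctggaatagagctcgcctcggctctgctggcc
Rian start: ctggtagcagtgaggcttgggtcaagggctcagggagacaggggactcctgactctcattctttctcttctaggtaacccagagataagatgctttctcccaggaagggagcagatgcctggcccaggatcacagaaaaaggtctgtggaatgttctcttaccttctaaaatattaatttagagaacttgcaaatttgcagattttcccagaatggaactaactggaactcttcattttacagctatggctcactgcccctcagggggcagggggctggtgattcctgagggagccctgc
Mirg start: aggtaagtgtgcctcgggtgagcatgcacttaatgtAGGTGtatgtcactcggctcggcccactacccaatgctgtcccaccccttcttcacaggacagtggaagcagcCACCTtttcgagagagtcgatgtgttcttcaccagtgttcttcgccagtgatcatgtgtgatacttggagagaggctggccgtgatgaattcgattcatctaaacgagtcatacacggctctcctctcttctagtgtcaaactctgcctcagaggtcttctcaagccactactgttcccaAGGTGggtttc
The window of Meg3 held 13 CG dinucleotides, that of Rian 0 and that of Mirg 10, against a median of 7.0 over 32851 windows of this length, and their GC content was 53.7%, 49.3% and 51.3% against a median of 52.7%. The Meg3 window held TGACGTCA, which 1.79% of all windows hold, and TATAAA on both strands as an overlapping run, which 13.6% hold. It also held TGCCGC, the core of the sequence bound by the imprint factor Zfp57, which 11.6% of windows hold. CACCT occurred 3 times in the Mirg window and in neither the Meg3 nor the Rian window, and 51.9% of all windows hold it. A second RefSeq start of Meg3, with its window at chr12:109545148-109545447, held CACCT 3 times and 1 CG dinucleotide. The longer form CACCTG, in 20.2% of windows, was in none of these 4 windows.

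RefSeq places 57 microRNA hairpins between the start of Meg3 and the end of Mirg, and 3 of these are on the minus strand. Within the bounds of the genes on the plus strand, Meg3 held 1 hairpin with both its arms annotated and a further mature microRNA without a hairpin in the table used, Rian held 3 hairpins and Mirg held 14. The mature sequences below show what the hosts carry. The seed, bases 2 to 8, is in capitals and is the stretch that pairs with target mRNAs.
miR-770-5p (in Meg3): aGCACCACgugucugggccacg
miR-770-3p (in Meg3): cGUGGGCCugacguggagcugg
miR-370-3p (in Rian): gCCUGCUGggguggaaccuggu
miR-341-3p (in Rian): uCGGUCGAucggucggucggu
miR-134-5p (in Mirg): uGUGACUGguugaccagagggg
miR-382-5p (in Mirg): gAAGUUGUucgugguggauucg
miR-154-5p (in Mirg): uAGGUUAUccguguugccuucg
miR-409-3p (in Mirg): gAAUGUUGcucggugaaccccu
miR-410-3p (in Mirg): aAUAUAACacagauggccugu
miR-453 (in Mirg): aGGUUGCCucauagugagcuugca
miR-496a-5p (in Mirg): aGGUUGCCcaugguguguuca
Of those shown, miR-453 and miR-496a-5p share the seed GGUUGCC, and the other seeds differ from each other. The authors removed short noncoding genes from the table, so the levels below are of the host RNAs and not of the microRNAs.

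Meg3 is a nuclear noncoding RNA with reported tumor suppressor activity. In Ctrl ESCs at d0 its level was 7.38, 6.25 and 6.69 TPM in the 3 libraries. It was 85.5, 117 and 121 TPM at d4 and 69.8, 69.9 and 79.9 TPM at d6. The 3 days did not overlap in Ctrl, with the lowest levels at d0 and the highest at d4. In KO cells Meg3 was at 25.4, 28.8 and 25.0 TPM at d0. At d4 the KO libraries were at 53.2, 64.9 and 69.4 TPM. At d6 they were at 74.6, 74.8 and 37.6 TPM, and replicate 3 stood apart from the other two. All KO libraries were thus above all Ctrl libraries at d0 and below all of them at d4, while at d6 the genotypes overlapped. These levels rested on 536 to 785 reads per library in Ctrl at d0 and on 1810 to 11697 reads in the other groups.

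The mean of Meg3 in KO at d0, 26.4 ± 2.06 TPM (SD, n = 3), was 3.90 times the Ctrl mean of 6.77 ± 0.57 TPM. On the scale of log2(TPM + 1), on which all log2 differences below are given, KO was above Ctrl by 1.82 ± 0.20 (SE of the fit over all genes). This was the 18th highest of the 10965 differences at d0, whose median was -0.07. At d4 the KO mean of 62.5 ± 8.36 TPM was 58.1% of the Ctrl mean of 108 ± 19.3 TPM, with a log2 difference of -0.77 ± 0.20 against a median of -0.16 over all genes. At d6 the difference was -0.29 ± 0.20, and without KO replicate 3 it was 0.03, so that 1 library set its direction.

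Rian had levels close to those of Meg3 at d0. Its Ctrl libraries were at 8.32, 8.09 and 6.71 TPM at d0. They were at 81.5, 83.2 and 97.4 TPM at d4 and at 48.2, 48.7 and 50.2 TPM at d6. As with Meg3, Ctrl cells had least at d0 and most at d4, without overlap between days. The KO libraries were at 26.1, 27.3 and 25.2 TPM at d0. They were at 69.9, 84.0 and 81.5 TPM at d4 and at 75.9, 65.3 and 53.2 TPM at d6. KO was above Ctrl in all libraries at d0 and again at d6, and at d4 the genotypes overlapped.

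The KO mean of Rian at d0, 26.2 ± 1.07 TPM (SD, n = 3), was 3.40 times the Ctrl mean of 7.71 ± 0.87 TPM. The log2 difference at d0 was 1.65 ± 0.11, the 33rd highest of all genes. At d4 it was -0.15 ± 0.11, close to the median of all genes, and it changed sign, to 0.02, after rescaling each library by its median ratio. At d6 the KO mean of 64.8 ± 11.4 TPM was 1.32 times the Ctrl mean of 49.1 ± 1.04 TPM, a log2 difference of 0.38 ± 0.11.

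Mirg, the host of the microRNAs at the far end of the cluster, had the lowest levels. In Ctrl it was at 2.09, 1.97 and 1.53 TPM at d0, on 57 to 104 reads per library. It was at 19.8, 23.6 and 24.7 TPM at d4 and at 12.8, 10.2 and 12.3 TPM at d6. The order of the days in Ctrl was that of the other two RNAs, again without overlap. In KO it was at 5.59, 7.90 and 6.22 TPM at d0. It was at 14.3, 19.4 and 17.5 TPM at d4 and at 15.4, 17.7 and 9.47 TPM at d6. Mirg was above Ctrl in all KO libraries at d0 and below in all at d4, and at d6 the genotypes overlapped, with KO replicate 3 lowest.

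The KO mean of Mirg at d0, 6.57 ± 1.19 TPM (SD, n = 3), was 3.52 times the Ctrl mean of 1.86 ± 0.29 TPM. The log2 difference at d0 was 1.40 ± 0.19, the 72nd highest of all genes. With a pseudocount of 5 it was 0.75 and with 0.1 it was 1.76, since the level of Mirg is low at d0. At d4 the difference was -0.40 ± 0.19 and at d6 it was 0.21 ± 0.19.

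Counted over the members, 3 of 3 had all KO libraries above all Ctrl libraries at d0, as had 19.9% of all genes. At d4, 2 of 3 had all KO libraries below all Ctrl libraries, as had 45.7% of all genes. At d6, 1 of 3 had all KO libraries above all Ctrl libraries, as had 22.7% of all genes. The choice of the members used these contrasts.

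**Figure D1:**
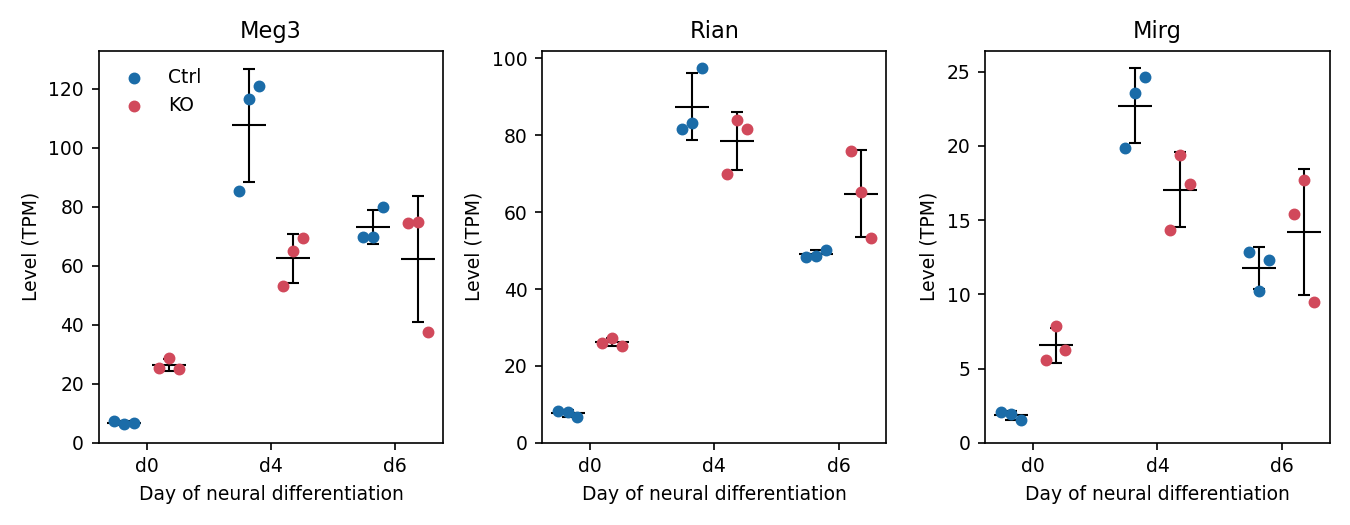
Level of Meg3, Rian and Mirg (TPM, linear axis) by day of neural differentiation in Ctrl (blue) and Zeb2 KO (red) cells. Points are the 3 libraries of a group and bars are mean and SD. KO libraries lie above Ctrl for all 3 RNAs at d0, and Ctrl d4 has the highest mean for each.

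The d4 levels exceeded the d0 levels by more in Ctrl than in KO cells. In Ctrl the d4 mean was 15.9 times the d0 mean for Meg3, 11.3 times for Rian and 12.2 times for Mirg, with log2 differences of 3.79 ± 0.20, 3.34 ± 0.11 and 3.05 ± 0.19 against a median of 0.26 over all genes. In KO the d4 means were 2.37, 3.00 and 2.60 times the d0 means, with log2 differences of 1.21 ± 0.20, 1.54 ± 0.11 and 1.26 ± 0.19 against a median of 0.15. In both genotypes all d4 libraries were above all d0 libraries for 3 of 3 members, as for 51.0% of all genes in Ctrl and 43.1% in KO. The differences between days and the KO to Ctrl differences share libraries, so they are not separate observations.

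In Ctrl the levels at d6 lay between those of d0 and d4. The d6 means were 68.0% of the d4 mean for Meg3, 56.2% for Rian and 52.0% for Mirg, and 3 of 3 members had all d6 libraries below all d4 libraries, as had 30.4% of all genes. In KO the d6 and d4 libraries overlapped for each of the 3, with log2 differences of -0.06 ± 0.20, -0.28 ± 0.11 and -0.28 ± 0.19. Without KO d6 replicate 3 the value of Meg3 was 0.26.

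Ordered by mean, Meg3 was highest in Ctrl d4, then in Ctrl d6, KO d4, KO d6, KO d0 and Ctrl d0, and only KO d4 and KO d6 overlapped as neighbours in this order. For Rian the order was Ctrl d4, KO d4, KO d6, Ctrl d6, KO d0 and Ctrl d0, with overlap between Ctrl d4 and KO d4 and between KO d4 and KO d6. Mirg had the same order as Rian, with overlap between KO d4 and KO d6 and between KO d6 and Ctrl d6. The lowest group, Ctrl d0, lay clear of KO d0 for each RNA, and KO d0 lay clear of all d4 and d6 groups. Among the 357 genes of long noncoding biotypes in the table, Meg3 ranked 136th by mean TPM in Ctrl d0 and 54th in KO d0, and 12th in Ctrl d4 and 19th in KO d4. Mirg ranked 283rd in Ctrl d0, 150th in KO d0, 59th in Ctrl d4 and 78th in KO d4.

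The proportions between the RNAs were not the same in all groups. In Ctrl the level of Rian per Meg3 was 1.13, 1.29 and 1.00 at d0. It was 0.95, 0.71 and 0.81 at d4 and 0.69, 0.70 and 0.63 at d6. Rian was thus at or above Meg3 in all Ctrl libraries at d0 and below it in all at d4 and d6. In KO the ratio was 1.03, 0.95 and 1.00 at d0. It was 1.31, 1.29 and 1.17 at d4 and 1.02, 0.87 and 1.41 at d6. The KO libraries lay above the Ctrl libraries at d4 and at d6 without overlap, and the KO ratios were not ordered by day. Ratios within a library do not depend on its scaling.

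The level of Mirg per Meg3 showed a like pattern. In Ctrl its d0 mean was 0.28 ± 0.043 (SD, n = 3), its d4 mean 0.21 ± 0.017 and its d6 mean 0.16 ± 0.020. In KO these means were 0.25 ± 0.027, 0.27 ± 0.024 and 0.23 ± 0.023, and the KO libraries lay above all Ctrl libraries at d4 and d6. Mirg per Rian stayed between 0.18 and 0.29 in all 18 libraries, with overlap of the genotypes at d0 and d6. At d4 its mean was 0.26 ± 0.021 in Ctrl and 0.22 ± 0.013 in KO, without overlap. Over the 18 libraries the log2 levels had Pearson correlations of 0.97 between Meg3 and Rian, 0.98 between Meg3 and Mirg and 0.99 between Rian and Mirg, which rest largely on the difference between d0 and later days. Over the 12 libraries of d4 and d6 they were 0.51, 0.76 and 0.90. The points share libraries and their scaling.

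**Figure D2:**
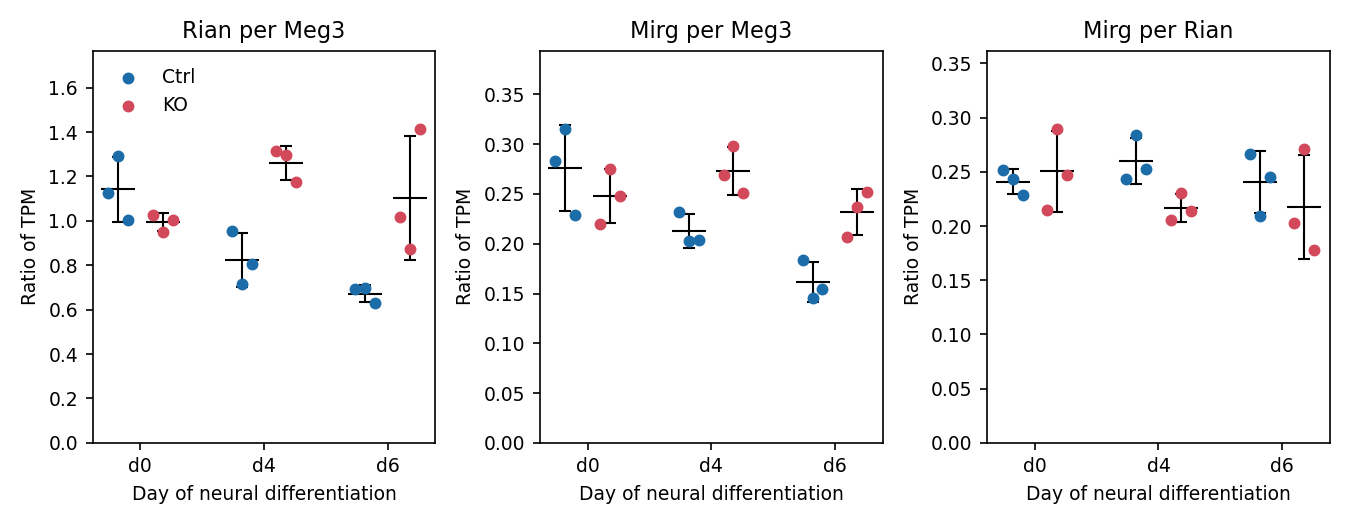
Ratio of TPM between members in each library, by day, in Ctrl (blue) and Zeb2 KO (red) cells. Points are libraries and bars are mean and SD of 3. Rian per Meg3 and Mirg per Meg3 are higher in KO than in Ctrl at d4 and d6, and Mirg per Rian overlaps at d0 and d6.

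The protein genes of the cluster, read from the other parental chromosome, followed another course. Dlk1, a transmembrane protein of the Notch ligand family, was near 0 at d0, with 7 to 18 reads per library in Ctrl and 1 to 5 in KO. Its Ctrl libraries were at 5.81, 7.58 and 9.20 TPM at d4 and at 11.4, 10.4 and 9.08 TPM at d6. Its KO libraries were at 0.80, 0.93 and 0.79 TPM at d4 and at 0.94, 0.73 and 0.68 TPM at d6. Dlk1 was lower in KO, with a log2 difference of -2.19 ± 0.15 (SE) at d4 (limma with Benjamini-Hochberg adjustment across the table, adjusted p = 1.16e-08) and of -2.66 ± 0.15 at d6 (limma, adjusted p = 4.75e-10). At d0 the difference was -0.19 ± 0.15 and did not pass the threshold of an adjusted p below 0.01 (limma, adjusted p = 0.368). Dlk1 passed the test at both days under all alternatives that kept it.

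Dio3, the deiodinase that inactivates thyroid hormone, did not pass the test on any day (limma, adjusted p = 0.194, 0.56 and 0.0557 at d0, d4 and d6), but passed at d6 with quantile normalization (limma, adjusted p = 0.00445). Its means were 5.03 ± 0.87 TPM (SD, n = 3) in Ctrl and 7.30 ± 1.49 TPM in KO at d0, 0.59 ± 0.27 and 0.85 ± 0.55 at d4, and 1.97 ± 0.79 and 3.55 ± 1.43 at d6. In contrast to the noncoding RNAs it was highest at d0 in both genotypes. With 3 to 86 reads per library its depth was low. Rtl1, of retrotransposon origin, is not analysed here. Of the profiles over 18 libraries, that of Dlk1 had a correlation of 0.59 and that of Dio3 of -0.72 with the mean profile of the members.

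**Figure D3:**
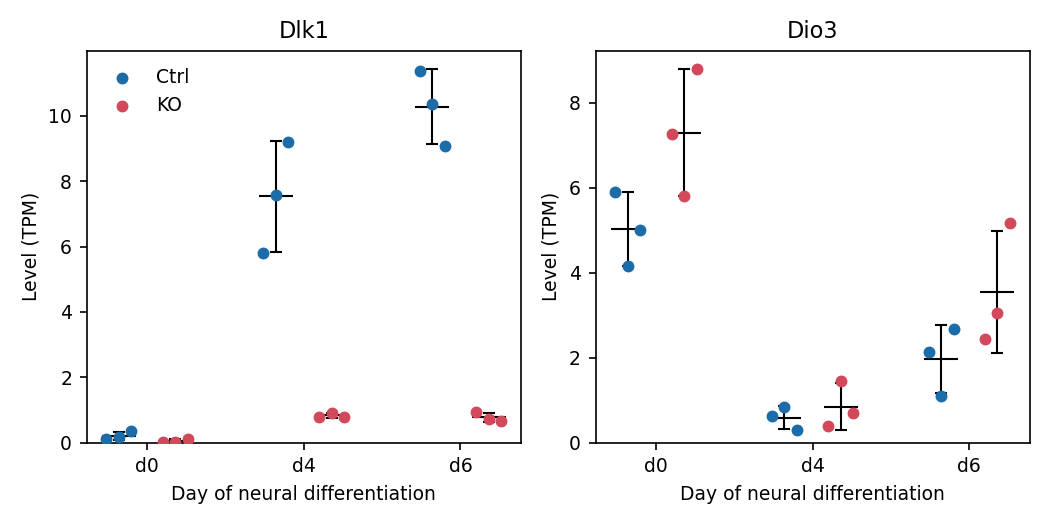
Level of Dlk1 and Dio3 (TPM, linear axis) by day in Ctrl (blue) and Zeb2 KO (red) cells. Points are the 3 libraries of a group and bars are mean and SD. Dlk1 stays below 1 TPM in all KO libraries, and Dio3 is highest at d0 in both genotypes.

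To see whether the d0 difference was shared along the chromosome, the 28 other genes of the table with a start within 2 Mb of that of Meg3 were compared. At d0, 12 of 28 were called higher in KO and 0 lower (limma, adjusted p below 0.01), against 10.6% of all genes higher and 16.4% lower. Their median log2 difference was 0.35, against -0.07 over all genes, and the same median of 0.35 was found over the 437 other genes of chromosome 12. In steps of 20 Mb the medians at d0 were -0.13 and -0.10 over the first 40 Mb of the chromosome and 0.39 to 0.53 over the rest, which includes the cluster. The members exceeded the median of their neighbours at d0 by 1.47 (Meg3), 1.30 (Rian) and 1.05 (Mirg), and lay above each of the 28, the highest of which, the pseudogene Mpc1-ps, was at 1.02 and did not pass the test (limma, adjusted p = 0.0204). Since the members were chosen for standing higher in KO at d0, their place above unchosen genes was largely set by the choice. At d4 and d6 the medians over the 437 genes were -0.179 and -0.184, against -0.164 and -0.14 over all genes. From 40 to 120 Mb the medians of the steps were -0.088 to -0.279 at d4 and -0.039 to -0.309 at d6. The upward shift of the chromosome was thus seen at d0 only. What part of the members' difference at d0 belongs to this shift was not tested.

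Among the neighbours called at d0, the largest differences were those of Zfp839, a zinc finger gene (0.65 ± 0.08, SE), the translation initiation factor Eif5 (0.62 ± 0.09), the actin regulator Evl (0.54 ± 0.10), the tryptophan tRNA ligase Wars (0.47 ± 0.055) and the kinase Mok (0.44 ± 0.11). The call of Mok was lost without Ctrl replicate 1 or 2 or any KO replicate (limma, adjusted p from 0.000409 to 0.0345 over the alternatives), and that of Evl in a fit to d0 alone (limma, adjusted p = 0.0187). At d4 the neighbours' median was -0.26, with 2 called higher and 10 lower, against 12.7% and 32.7% of all genes. At d6 it was -0.38, with 2 higher and 13 lower, against 17.9% and 34.3%. Next to Dlk1, the largest falls were those of the microtubule gene Eml1 (-1.43 ± 0.14 at d4, -1.27 ± 0.14 at d6) and the mitochondrial carrier gene Slc25a47 (-1.43 ± 0.21 and -1.25 ± 0.21), together with Tecpr2 at d4 (-0.91 ± 0.11) and the cholesterol hydroxylase Cyp46a1 at d6 (-1.28 ± 0.21). Gm266 was also among them (-1.30 ± 0.34 and -1.18 ± 0.34), but its adjusted p ranged from 0.000406 to 0.0279 over the limma alternatives at d4 and from 0.00116 to 0.0326 at d6, with the call lost without Ctrl replicate 2 or 3 or KO replicate 1 at d4 and without Ctrl replicate 1 or 2 or KO replicate 1 or 3 at d6. At d4 Meg3 was below the median of its neighbours by 0.51 and Rian above it by 0.11, and at d6 Rian was above it by 0.76.

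**Figure D4:**
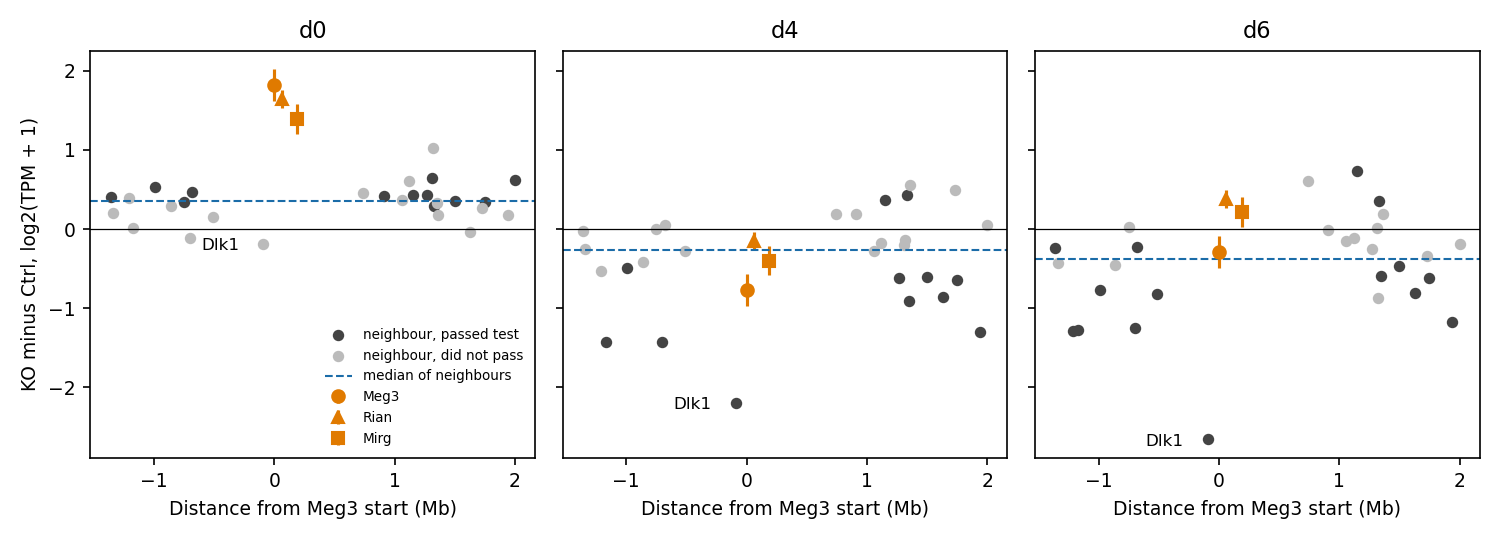
Log2 difference between KO and Ctrl against the distance from the start of Meg3 (Mb) for the members (orange, bars are SE) and their 28 neighbours within 2 Mb (dark where the adjusted p was below 0.01, light where not). The dashed line is the median of the neighbours. At d0 the members, which were chosen for being higher in KO at d0, lie above all neighbours.

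Other maternally expressed genes were set beside the members. Of 27 such genes listed, 16 were in the table, and some of them are imprinted in only a few tissues. At d0, 3 were called higher and 5 lower in KO, with a median log2 difference of -0.22. The noncoding RNA H19, also maternally expressed and host of a microRNA, was lower (-2.55 ± 0.12, SE), the opposite direction to the members. The cell cycle inhibitor Cdkn1c (-1.22 ± 0.15), the receptor Igf2r (-1.06 ± 0.09), the creatine synthesis gene Gatm (-0.93 ± 0.15) and the lipid transfer gene Osbpl5 (-0.87 ± 0.15) were lower too. The call of Osbpl5 was lost with a pseudocount of 5 (limma, adjusted p = 0.0186). The 3 called higher were the placental growth gene Phlda2 (0.71), Ppp1r9a (0.61) and the adaptor gene Grb10 (0.38). The call of Phlda2 was lost without Ctrl replicate 1 (limma, adjusted p up to 0.0326), that of Ppp1r9a without Ctrl replicate 2 or 3 or KO replicate 2 (limma, adjusted p up to 0.0225) and that of Grb10 without Ctrl replicate 1 or any KO replicate (limma, adjusted p up to 0.0319). At d4, 1 was called higher and 8 lower, and at d6, 1 higher and 11 lower, with medians of -0.43 and -0.61 against -0.16 and -0.14 over all genes. The shares of all genes called higher and lower, given with the neighbours, were 10.6% and 16.4% at d0, 12.7% and 32.7% at d4, and 17.9% and 34.3% at d6.

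The largest falls at d4 among maternally expressed genes were those of Cdkn1c (-1.44 ± 0.15), H19 (-1.40 ± 0.12), Grb10 (-1.17 ± 0.10), Zim1 (-1.17 ± 0.17) and H13 (-0.86 ± 0.11). At d6 they were those of Zim1 (-2.79 ± 0.17), H19 (-2.59 ± 0.12), Grb10 (-2.33 ± 0.10), Cdkn1c (-2.00 ± 0.15) and Osbpl5 (-0.92 ± 0.15). Rian, at 0.38 at d6, was on the other side of 0 from 14 of the 16 genes of this list, and the d6 value of Mirg, 0.21 ± 0.19, ranged from 0.042 to 0.461 when single libraries were left out.

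At d4 and d6, paternally expressed genes showed the larger falls. Of 37 listed, 22 were in the table. At d0, 4 were called higher and 4 lower, against 10.6% and 16.4% of all genes, with a median of 0.04. Higher were Sfmbt2 (0.91 ± 0.11), the decarboxylase gene Ddc (0.69 ± 0.12), Plagl1 (0.64 ± 0.15) and Smoc1 (0.51 ± 0.10), and the largest falls were those of Fkbp6 (-1.15 ± 0.16), the growth factor gene Igf2 (-0.79 ± 0.15), Mkrn3 (-0.71 ± 0.16) and Peg10 (-0.67 ± 0.12). Smoc1 is also on chromosome 12, at -28.51 Mb from the start of Meg3, in the step from 80 to 100 Mb with a d0 median of 0.53. The call of Plagl1 was lost without Ctrl replicate 2 or 3 or KO replicate 2 (limma, adjusted p from 4e-06 to 0.0213 over the alternatives). The call of Mkrn3 was lost without KO replicate 2 (limma, adjusted p from 0.0013 to 0.0167 over the alternatives). That of Igf2 was lost with a pseudocount of 5 (limma, adjusted p = 0.0583) and that of Peg10 in a fit to d0 alone (limma, adjusted p = 0.0187). At d4, 1 was higher and 17 were lower, against 12.7% and 32.7% of all genes, with a median of -0.89. The 5 largest were Igf2 (-3.41 ± 0.15), Peg12 (-2.71 ± 0.12), Peg3 (-2.66 ± 0.08), Peg10 (-2.55 ± 0.12) and Nnat (-2.52 ± 0.16). At d6, 1 was higher and 16 were lower, against 17.9% and 34.3% of all genes, with a median of -1.14, and the 5 largest were Igf2 (-4.19 ± 0.15), Peg12 (-3.24 ± 0.12), Nnat (-3.16 ± 0.16), Dlk1 and Mest (-2.54 ± 0.12). The d4 and d6 differences of the members, between -0.77 and 0.38, were small beside these.

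Factors that set, keep or remove DNA methylation and imprints were 20, of which 19 were in the table. At d0, 1 was called higher (Ctcf, 0.24 ± 0.055) and 4 lower, against 10.6% and 16.4% of all genes. The lower ones were Dppa3, which guards maternal methylation (-1.01 ± 0.15), Dnmt3l, a cofactor of the de novo methyltransferases (-0.84 ± 0.16), Aff3, which is known to bind the control region of this cluster (-0.65 ± 0.11), and Trim28 (-0.23 ± 0.056). The call of Aff3 was lost in a fit to d0 alone (limma, adjusted p = 0.0107). That of Dnmt3l was lost with a pseudocount of 5 and with voom (limma, adjusted p up to 0.0606). Without KO replicate 3 the count at d0 was 3, since the calls of Ctcf and Trim28 were lost, with adjusted p up to 0.014 and 0.0268 over the limma alternatives. The call of Ctcf was also lost without Ctrl replicate 3 or KO replicate 2, and that of Trim28 without Ctrl replicate 1 or 3 or KO replicate 1. At d4, 5 were called higher and 5 lower, against 12.7% and 32.7% of all genes, and at d6, 8 higher and 4 lower, against 17.9% and 34.3%. The methyltransferase gene Dnmt3b was at 40.6 ± 6.89 TPM (SD, n = 3) in Ctrl and 345 ± 78.4 TPM in KO at d4, with a log2 difference of 3.05 ± 0.15 at d4 and 3.06 ± 0.15 at d6. Dnmt3l (1.64 and 1.62, each ± 0.16) and Dnmt3a (0.79 and 0.82, each ± 0.14) were higher on both days, and so was Tet1 (0.62 and 1.22, each ± 0.13). The methyltransferase gene Dnmt1, in contrast, was called lower at d4 (-0.305 ± 0.053) and at d6 (-0.671 ± 0.053). Tet3 was lower at d4 (-1.07 ± 0.11) and at d6 (-1.62 ± 0.11), and Dppa3 was lower at d4 (-1.40 ± 0.15). The part of these factors in the members' levels was not tested.

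**Figure D5:**
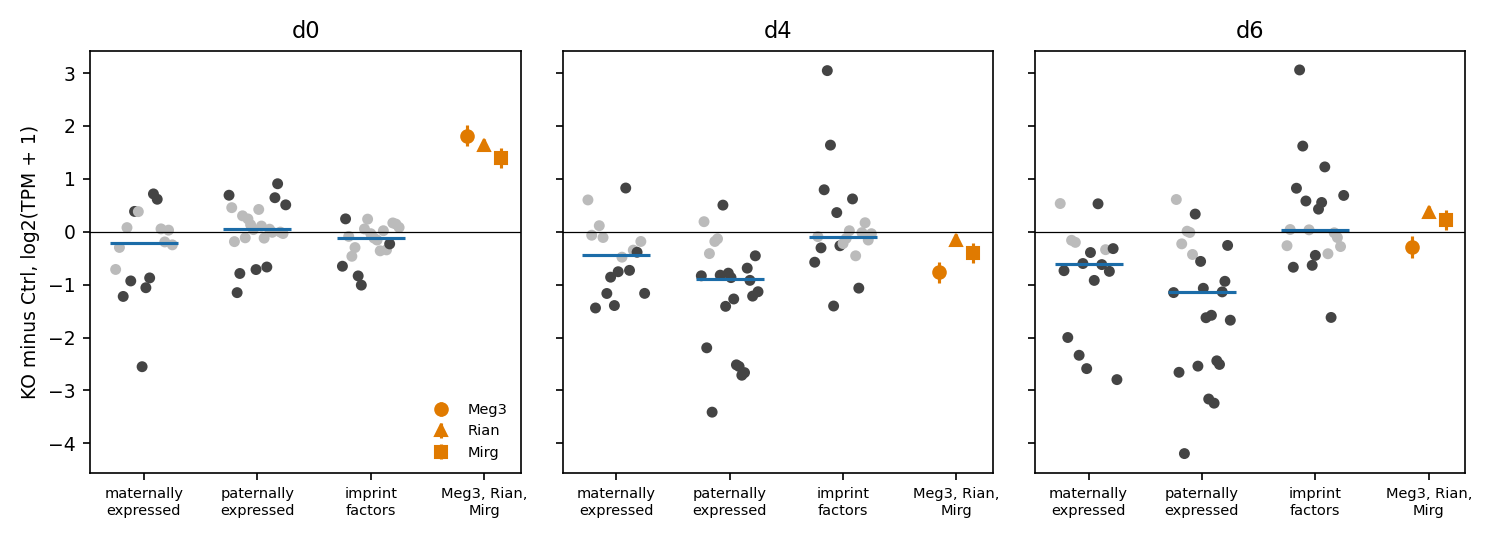
Log2 difference between KO and Ctrl at each day for the listed maternally expressed genes, paternally expressed genes and imprint factors (dark where the adjusted p was below 0.01, light where not, blue line for the median) and for Meg3, Rian and Mirg (orange, bars are SE). At d0 the members, which were chosen for being higher in KO at d0, lie above all listed genes. At d4 and d6 they lie nearer to 0 than most of the paternally expressed genes.

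Genes with a profile like that of the members were sought over the 18 libraries, by the Pearson correlation of log2 levels with the mean of the members' standardized profiles. Among the 10 highest were Caprin2 (0.97), Mmp14 (0.97), Hook3 (0.97), Wrn (0.95), Stxbp2 (0.95), Setbp1 (0.95), Zc3h14 (0.95), Hmgn5 (0.95) and Zfp948 (0.95). In all, 94 of 10962 genes had a correlation of at least 0.9. Mmp14, a membrane metalloprotease gene, had a d0 difference of 1.74, as large as those of the members, with 3.65 TPM in Ctrl d0, 14.7 in KO d0, 46.9 in Ctrl d4 and 33.8 in KO d4. Hmgn5, a nucleosome-binding protein gene, was at 333 TPM in Ctrl d4 and 199 in KO d4, a d4 difference of -0.74 close to that of Meg3. Of the 10, Zc3h14 was on chromosome 12. The 5 lowest correlations were those of Bola2 (-0.96), Gins1 (-0.96), Adap1 (-0.96), 2310011J03Rik (-0.95) and Saal1 (-0.95), which were highest in Ctrl d0. By Spearman correlation only 1 of the 10, Hmgn5, was again among the 10 highest, so the list depends on the measure.

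Marker lists of other cell types were summed in each library. The 6 of 10 fibroblast markers in the table, which include Col1a1, Col1a2 and Thy1, added up to 13.3 to 15.4 TPM in Ctrl and 6.20 to 7.45 TPM in KO at d0, where the members were higher in KO, and Col1a2 was at 0.084 and 0.043 TPM. The 8 of 10 endoderm markers added up to 6.26 to 6.94 and 4.28 to 5.22 TPM and the 7 of 10 trophectoderm markers to 103 to 113 and 71.6 to 78.9 TPM at d0. All these sums were thus lower in KO at d0. The 10 of 10 pluripotent cell markers added up to 7677 to 8087 TPM in Ctrl and 7220 to 8146 TPM in KO at d0, to 3574 to 4389 and 6193 to 6720 TPM at d4, and to 1415 to 1590 and 4652 to 5096 TPM at d6. The 9 of 10 neural progenitor markers added up to 192 to 237 TPM in Ctrl and 107 to 122 TPM in KO at d0 and to 326 to 386 and 219 to 236 TPM at d4. The endoderm markers added up to 28.9 to 30.7 and 10.7 to 18.5 TPM at d4, and to 183 to 296 and 44.7 to 71.4 TPM at d6. The neural and endoderm sums were thus lower in KO on all 3 days, and the pluripotent sums higher in KO at d4 and d6, without overlap. Single markers did not all follow the sums at d0. Of the 8 endoderm markers 4 were higher and 4 lower in KO at d0, with 0 called. Of the 9 neural markers 3 were higher and 6 lower, with 0 called higher and 3 lower, against 10.6% and 16.4% of all genes. The part of these differences in the members' levels was not tested. In KO d6 replicate 3 all 3 members were lowest among the KO d6 libraries. Its pluripotent sum was 4922 TPM, against 5096 and 4652 TPM in replicates 1 and 2. Its fibroblast sum was 53.1 TPM, against 41.5 and 45.0 TPM. On average Thy1 made up most of the fibroblast sum in KO d6, at 32.8 TPM against 5.19 TPM in Ctrl d6. Col1a1 (3.55 against 15.6 TPM) and Col1a2 (1.60 against 7.72 TPM) went the other way. Of the 6 fibroblast markers, 5 passed the d6 test with less RNA in KO and 1 with more. Of all genes, 34.3% and 17.9% did so. Which markers set the higher fibroblast sum of replicate 3 was not tested.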

How the data were processed

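RNA-seq of 18 libraries was analysed from the table of TPM values that the authors deposited. Per the labels and the methods, the authors mapped single reads to GRCm38 with TopHat2 2.0.13, counted reads per annotated gene with featureCounts 1.4.6, converted counts to TPM and removed short noncoding, weakly expressed and least variable genes. The deposited table also holds 3 columns of a score of variability, which were not used. Of 11046 entries, 81 repeated ones were left out, and 10965 genes remained.

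The members and gene lists were chosen with earlier results of these data known. Levels were compared with limma 3.58.1 (R 4.3.3) on log2(TPM + 1), with a mean per group, an intensity trend and p adjusted across the whole table by Benjamini-Hochberg. A call was an adjusted p below 0.01. Whole reads, with 1 added per gene, were recovered for 100% of genes (within 0.01 of a whole number) and gave the depth. Of 200 simulated d4 changes of 1.5 on the log2 scale, 87.0% were recovered, with 4 false calls among the other genes of the 10965. The changed genes were drawn only from those above a set mean TPM. The spread of the simulated reads was set and not estimated from these libraries. The share recovered therefore need not hold for genes with low levels.

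Named were the members, the protein genes of the cluster, Zeb2, up to 5 called genes with the largest difference per list and day, and the 10 most and 5 least alike profiles. A gene that this rule picks is not reported here. Other genes named were chosen after their values were seen. Positions came from GENCODE M21, and sequences and microRNA positions from RefSeq (GRCm38.p6). Python 3.11.15, numpy 2.4.6, pandas 2.3.3 and matplotlib 3.10.9 were used. The alternatives were pseudocounts of 0.1 and 5, a mean TPM of at least 10, median-ratio rescaling, quantile normalization, a replicate block, a fit to 1 day, no trend, voom on the recovered reads, neighbours within 5 Mb, Spearman correlation and leaving out each library.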

Additional observations from a re-analysis of the deposited data

Results flagged for a closer look

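The difference between KO and Ctrl had opposite signs on different days, without overlap of the libraries on either day, for Meg3 (1.82 on the log2 scale at d0 and -0.77 at d4) and for Mirg (1.40 at d0 and -0.40 at d4). For Mirg at d4 the highest KO library was at 19.36 TPM and the lowest Ctrl library at 19.84 TPM. With quantile normalization its d4 difference was -0.11. At d4, 45.7% of all genes had all KO libraries below all Ctrl libraries, and the median difference of all genes was -0.16. The change of the difference between days was not tested.

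A like change was looked for in 45 other genes singled out in the lists or in the text, of which 11 passed the test in opposite directions on 2 days. The 45 were singled out largely by the size of their differences. The share of all genes with such a change was not counted, so 11 of 45 cannot be set against it. Ddc was at 0.69 at d0, -0.83 at d4 and -1.15 at d6. Sfmbt2 was at 0.91, -0.92 and -1.14. Smoc1 was at 0.51, -1.13 and -1.67. These genes passed on all 3 days under all alternatives. Evl was at 0.54, -0.49 and -0.77, and lost its call at d0 in a fit to that day and at d4 with median-ratio rescaling (limma, adjusted p = 0.012). Grb10 was at 0.38, -1.17 and -2.33, Plagl1 at 0.64, -0.69 and -2.51, and Ppp1r9a at 0.61, -0.73 and -0.62, and for each the d0 call was lost without single libraries, as given above. Ppp1r9a also lost its d6 call without KO d6 replicate 3, with quantile normalization and in a fit to d6 alone (limma, adjusted p up to 0.0355 over the alternatives). Its d4 call was lost with quantile normalization (limma, adjusted p = 0.0154). That of Plagl1 at d4 was lost with quantile normalization and in a fit to d4 alone (limma, adjusted p up to 0.0401). Dnmt3l was at -0.84, 1.64 and 1.62, and its d0 call was lost with a pseudocount of 5 and with voom (limma, adjusted p up to 0.0606). Mok was at 0.44 at d0, a call lost without single libraries, and -0.62 at d4. Wars was at 0.47 at d0 and -0.23 at d6, a call lost with median-ratio rescaling, voom and a fit to d6 alone (limma, adjusted p up to 0.226). Dppa3 was lower at d0 (-1.01) and d4 (-1.40) and higher at d6 (0.58), and its d6 call was lost in a fit to d6 alone and without Ctrl replicate 1 or KO replicate 2 or 3 (limma, adjusted p up to 0.0197). Outside the 45, the neighbours Cdc42bpb (0.344 at d0, -0.639 at d4 and -0.621 at d6), Rcor1 (0.355, -0.60 and -0.461) and Ccnk (0.411 at d0 and -0.241 at d6) also passed in opposite directions. Their calls under the alternatives are not given here. None of these changes between days was tested.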

How the results depend on the processing

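The differences of the members at d0 and their d4 minus d0 differences in Ctrl kept their direction under all alternatives run, but their size depended on the scale, most of all for Mirg, which is low at d0. With a pseudocount of 5 the d0 differences of Meg3, Rian and Mirg were 1.42, 1.30 and 0.75, their d4 minus d0 differences in Ctrl 3.24, 2.86 and 2.01, those of Rian and Mirg in KO 1.42 and 0.93, and the d6 minus d4 difference of Mirg in Ctrl -0.72. With 0.1 the d0 differences of Meg3 and Mirg were 1.95 and 1.76 and the d4 minus d0 difference of Mirg in Ctrl 3.54. With voom they were 2.00, 1.80 and 1.86 at d0, and 3.48 for that of Mirg from d0 to d4 in Ctrl. With quantile normalization Meg3 and Rian were at 1.59 and 1.45 at d0, Mirg at -0.11 at d4 and 0.60 at d6, the d4 minus d0 differences in Ctrl were 3.33, 2.90 and 2.28, those of Rian and Mirg in KO 1.40 and 0.88, and that of Mirg from d4 to d6 in Ctrl -1.12. With median-ratio rescaling the d4 minus d0 differences in Ctrl were 3.51, 3.06 and 2.80, those of Meg3 and Rian in KO 1.04 and 1.38, and Rian at d4 turned from -0.15 to 0.019. Leaving out single libraries, Meg3 at d6 ranged from -0.45 to 0.031 and its change from d4 to d6 in KO from -0.225 to 0.26, so neither has a settled direction. Mirg at d6 ranged from 0.042 to 0.461.

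Of 226 alternative counts of called genes, 221 were within 1.5 times the value reported. With a mean TPM of at least 10, 9 neighbours were called at d6 and 5 maternally expressed genes at d0. In a fit to d0 alone, 5 maternally expressed genes and 2 imprint factors were called, and leaving out single libraries the imprint factors called at d0 were 3 to 5. Of the 10 most alike genes, 1 remained with Spearman correlation. Within 5 Mb, 51.4% of neighbours were called at d0 (32 of 72 higher and 5 lower), against 42.9% within 2 Mb (12 of 28 higher and 0 lower). Of all genes, 10.6% were called higher and 16.4% lower at d0. Libraries with the same replicate number correlated from -0.077 to 0.231 in their deviations from the group means, over 0.1 in 6 of 9 pairs, so the numbers were not treated as pairs. With a replicate block 2780, 4853 and 5629 genes were called at d0, d4 and d6, against 2960, 4988 and 5731 without it. Of the 45 genes singled out, Mok lost its d0 call with the block and H13 gained one. With 3 libraries per group and few reads of Mirg and Dio3, small differences could not be resolved.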
